A study of Mus musculus with 12 samples.

Results

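The genes described are 10 genes of MHC class II antigen presentation and T cell costimulation, out of 55401 genes measured. They are the class II chain genes H2-Aa, H2-Ab1 and H2-Eb1, the invariant chain gene Cd74, the transactivator gene Ciita, the peptide exchange genes H2-DMa and H2-DMb1, and the costimulation genes Cd80, Cd86 and Cd40. The rule names them by these roles and uses no measured value, although earlier results of these data were known when they were chosen. All 10 had at least 2 reads in each of the 12 libraries, and all 10 passed the filter on low values in every comparison.

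The RNA came from CD45+/CD11b+/Ly6G- cells of the hind paws of mice, taken 4 h after the paw was injected and sequenced from the 3' end. Such a gate keeps monocytes, macrophages and CD11b+ dendritic cells and removes neutrophils. The mice were FABP5Flox (Flox) or FABP5Flox/LysM-Cre (cKO), the latter a conditional knockout in which the lysozyme M gene Lyz2 drives the Cre recombinase in myeloid cells. Both genotypes carried the floxed Fabp5 gene, and both received either sterile saline or 1% carrageenan, a seaweed polysaccharide that provokes acute inflammation. The 4 groups, Flox saline, Flox carrageenan, cKO saline and cKO carrageenan, held 3 libraries each (n = 3), and every library was a pool of cells from 3 or 4 adult mice. Pools are named by the mouse numbers in their titles (Flox 1-3, 4-7 and 8-10, cKO 1-4, 5-8 and 9-12), and values of single libraries are listed in that order. Strain, sex and exact age are not stated. With no LysM-Cre group lacking the floxed gene, an effect of the Cre or its Lyz2 insertion and an effect of losing Fabp5 cannot be told apart.

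MHC class II molecules are pairs of an alpha and a beta chain that show peptides from ingested proteins to CD4+ T cells. The invariant chain, encoded by Cd74, escorts new pairs to endosomes and blocks their groove until proteases degrade it, after which H2-DM exchanges the remaining fragment for a peptide. Ciita is the master regulator of these genes. It binds no DNA itself but joins a complex of RFX, CREB and NF-Y assembled on the X and Y boxes of their promoters, and interferon-gamma induces it. A T cell also needs a second signal. CD80 and CD86 give it through CD28, and CD40 on the presenting cell is triggered by CD40 ligand from the T cell and raises the costimulatory ligands through NF-kB. Macrophages and dendritic cells of the skin and joints carry these molecules, and inflammatory stimuli are known to raise CD40, CD80 and CD86 on them.

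The libraries held 111925 to 994161 reads on genes in Flox and 508407 to 2987015 in cKO, a 4.99-fold ratio of geometric means, so that depth and genotype cannot be told apart. A single read was worth 5.46 normalized counts in the shallowest library (Flox saline 1-3) and 0.268 in the deepest (cKO saline 5-8). The targeted gene Fabp5 was lower in cKO without passing the test (log2 fold change ± SE -2.06 ± 0.53 in carrageenan and -1.20 ± 0.79 in saline, limma adjusted p = 0.497 and 0.683), and whether the 3' end that was read lies in the deleted part is not stated. Lyz2 gave -1.14 ± 0.28 and -0.57 ± 0.37 (limma adjusted p = 0.497 and 0.683). The cKO carrageenan 9-12 library, the shallowest of the cKO libraries, differed from the other cKO carrageenan pools in several of the genes below, and where leaving it out moved a fold change most, the value without it stands beside the main one.

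Of the 10 genes, 5 had a RefSeq promoter window (build GRCm38.p6, 250 bases before to 50 after the start), with 6 windows in all. The windows of H2-Aa, H2-Eb1 and H2-DMb1 are shown because they hold matches to the X and Y boxes, the elements through which Ciita is known to act on class II promoters. A match describes the letters of a window and is not a shown binding site, and a missing match says only that the letters are not in that window. They lie at chr17:34287774-34288073 (minus strand), chr17:34305617-34305916 (plus strand) and chr17:34152941-34153240 (plus strand). Capitals mark the X1 box core searched as CNNGNAAC and the Y box core CCAAT, each on either strand, so that an inverted Y box reads ATTGG.
H2-Aa: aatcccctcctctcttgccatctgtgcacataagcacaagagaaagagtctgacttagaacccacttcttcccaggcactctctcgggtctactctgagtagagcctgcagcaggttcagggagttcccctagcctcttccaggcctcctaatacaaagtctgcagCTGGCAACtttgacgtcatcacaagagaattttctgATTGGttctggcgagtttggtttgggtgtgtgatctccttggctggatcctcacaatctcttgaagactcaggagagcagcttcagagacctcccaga
H2-Eb1: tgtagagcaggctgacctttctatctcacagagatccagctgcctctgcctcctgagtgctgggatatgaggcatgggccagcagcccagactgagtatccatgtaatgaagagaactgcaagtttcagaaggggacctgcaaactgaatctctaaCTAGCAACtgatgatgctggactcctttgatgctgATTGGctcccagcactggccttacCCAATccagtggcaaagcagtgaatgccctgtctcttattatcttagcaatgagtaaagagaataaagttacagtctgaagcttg
H2-DMb1: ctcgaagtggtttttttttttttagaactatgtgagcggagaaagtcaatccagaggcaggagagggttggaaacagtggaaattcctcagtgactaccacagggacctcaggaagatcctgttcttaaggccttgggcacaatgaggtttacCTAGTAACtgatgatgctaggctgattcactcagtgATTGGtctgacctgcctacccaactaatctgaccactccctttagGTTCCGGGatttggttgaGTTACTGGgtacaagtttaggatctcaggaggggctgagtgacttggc

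In H2-Aa the X1 core began 84 bases before the start and the inverted Y box 48 bases before it. In H2-Eb1 these positions were 94 and 59, and in H2-DMb1 97 and 61, so that the boxes began 36, 35 and 36 bases apart. H2-Eb1 held a further CCAAT 35 bases before the start, and H2-DMb1 held inverted X1 matches beginning 16 bases before and 3 bases after it. An X1 core followed by an inverted Y box 30 to 40 bases on stood in 71 of all 32851 windows (0.216%). Each motif alone was common, CCAAT in 37.4% and CNNGNAAC in 39.1% of windows. The 8-letter form of the X1 core and the 30 to 40 base range were chosen after the windows had been read. A longer X1 core with 2 more letters, in 13.2% of all windows, matched H2-Eb1 and H2-DMb1 but not H2-Aa. The windows of H2-DMa held X1 matches and 1 inverted Y box but no such pair, and the Cd80 window matched none of the motifs. Searches for the interferon-stimulated response element (in 3.44% of windows) and the gamma-activated site TTCNNNGAA (8.30%) found no match in the 6 windows. An NF-kB site (4.79%) was matched only in H2-Aa, 131 bases before the start.

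**Figure D1:**
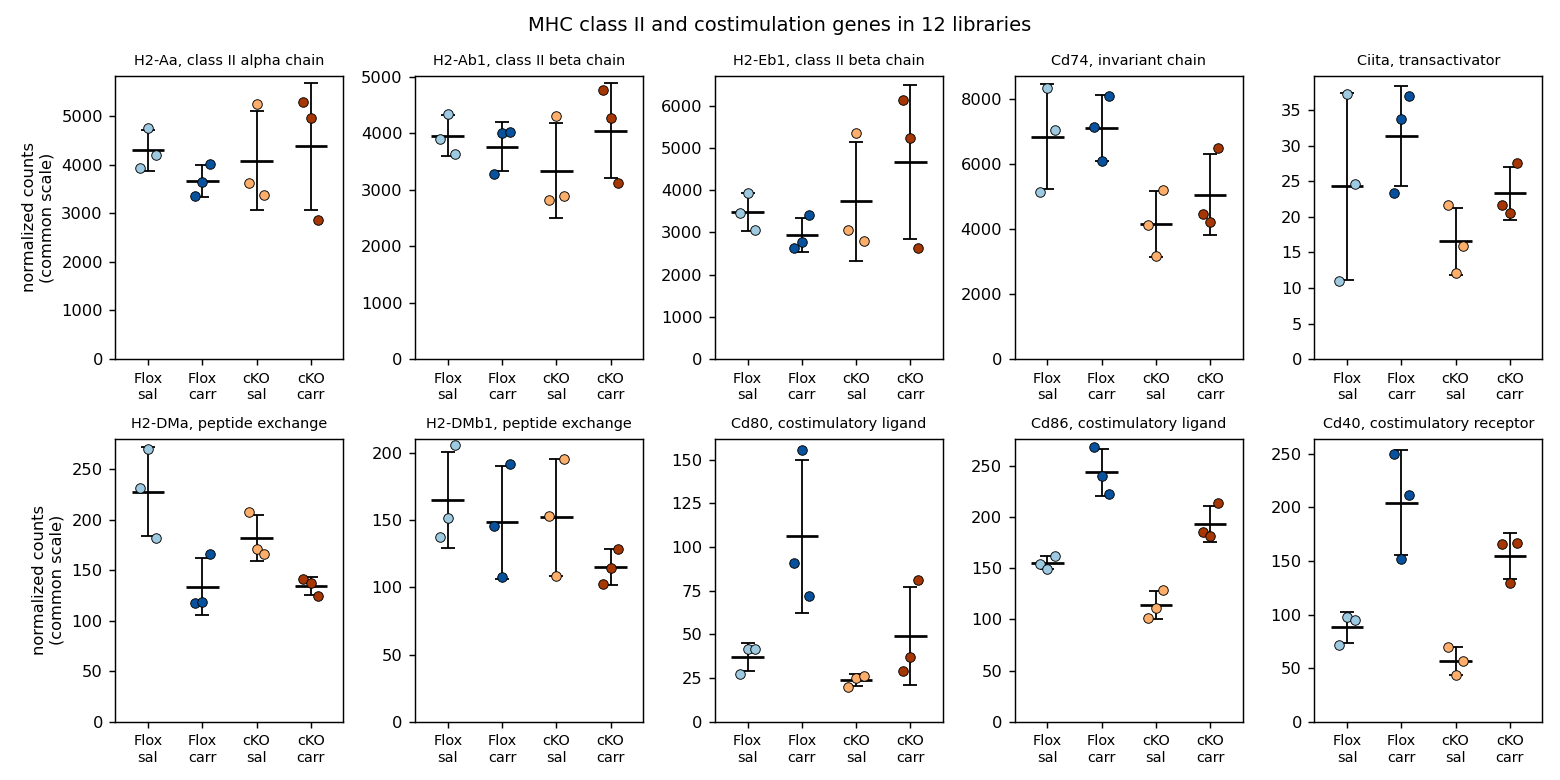
Normalized counts of the 10 genes in each library (vertical axes, linear, all 12 libraries on 1 common scale, sal for saline and carr for carrageenan). Points are libraries, thick lines group means and bars 1 SD (n = 3). The saline and carrageenan points of Cd86 and Cd40 are apart in both genotypes, while those of H2-Aa, H2-Ab1, H2-Eb1 and Cd74 overlap.

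The class II chain genes showed no change with carrageenan that passed the test. H2-Aa, which encodes the alpha chain of the A molecule (ENSMUSG00000036594, chr17:34282744-34287823), stood at 3937, 4756 and 4190 normalized counts in Flox saline and at 3356, 3636 and 4010 in Flox carrageenan. In cKO it stood at 3625, 5249 and 3380 in saline and 5287, 4969 and 2872 in carrageenan. The groups overlapped in both genotypes, and the 9-12 pool was the lowest in each treatment of cKO. The log2 fold change of carrageenan over saline was -0.23 ± 0.31 (± SE) in Flox, with a 95% interval of -0.89 to 0.43, and 0.08 ± 0.31 (-0.58 to 0.74) in cKO (limma adjusted p = 0.696 and 0.997). Without the 9-12 pool of cKO carrageenan the cKO value was 0.36 (limma adjusted p = 1). All values of carrageenan against saline are on a common scale for the 12 libraries, and every fold change is on log2 of the value plus 1.

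H2-Ab1, the beta chain partner of H2-Aa (ENSMUSG00000073421, chr17:34257689-34269419), gave 3898, 4343 and 3629 normalized counts in Flox saline and 3268, 3994 and 4026 in Flox carrageenan. The cKO values were 2810, 4301 and 2886 in saline and 4765, 4263 and 3111 in carrageenan. Its log2 fold changes were no larger than their errors, at -0.08 ± 0.29 (-0.69 to 0.54) in Flox and 0.29 ± 0.29 (-0.33 to 0.90) in cKO (limma adjusted p = 0.900 and 0.946), and 0.46 in cKO without carrageenan 9-12 (limma adjusted p = 0.874). H2-Eb1, a beta chain of the E molecule (ENSMUSG00000060586, chr17:34305867-34316674), was read at 3463, 3935 and 3054 in Flox saline and 2632, 2774 and 3402 in Flox carrageenan. In cKO it was read at 3055, 5364 and 2797 in saline and 6146, 5247 and 2622 in carrageenan. Here too the groups overlapped, and 3 cKO libraries, saline 5-8 and carrageenan 1-4 and 5-8, stood above every Flox library. The log2 fold change was -0.25 ± 0.36 in Flox and 0.29 ± 0.36 in cKO (limma adjusted p = 0.712 and 0.968), and 0.67 in cKO without carrageenan 9-12 (limma adjusted p = 0.633). H2-Ea-ps, the E alpha gene entry, had 0 reads in all 12 libraries, which allows up to 3 reads in each.

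The chain genes varied together from library to library. Over the 12 libraries the Pearson correlation of log2 values was 0.83 between H2-Aa and H2-Ab1, 0.93 between H2-Aa and H2-Eb1 and 0.78 between H2-Ab1 and H2-Eb1 (Spearman 0.87, 0.92 and 0.78). Without the 2 libraries farthest from the median of the first gene they were 0.78, 0.94 and 0.85. Taken as deviations from the group means they were 0.93, 0.98 and 0.95, so the shared variation lay within groups. H2-DMb1, at 25 to 453 reads a library, gave -0.36 against H2-Aa over all libraries and -0.43 within groups. Genes of 1 library share its depth and its mix of cells, so these values describe the libraries and carry no p. The spread between pools of the chain genes was 8.95 to 13.9% of the mean (coefficient of variation) in the Flox groups and 21.0 to 39.2% in the cKO groups. Together the chain genes took 1.59 to 1.90% of gene reads in Flox saline, 1.27 to 1.52% in Flox carrageenan, 1.35 to 1.97% in cKO saline and 1.10 to 2.10% in cKO carrageenan. The Flox ranges did not overlap, the cKO ranges did.

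Cd74 (ENSMUSG00000024610, chr18:60803848-60812652) stood at 5155, 8344 and 7041 normalized counts in Flox saline and 7134, 6092 and 8109 in Flox carrageenan. The cKO libraries gave 4127, 3159 and 5196 in saline and 4473, 4209 and 6499 in carrageenan. The treatments overlapped in both genotypes, with log2 fold changes of 0.07 ± 0.32 (-0.62 to 0.77) in Flox and 0.28 ± 0.32 (-0.41 to 0.98) in cKO (limma adjusted p = 0.914 and 0.959). Each cKO carrageenan pool stood above the saline pool of the same number, and with the replicate number as a block the limma adjusted p in cKO was 0.844. Without carrageenan 9-12 the cKO value was 0.09 (limma adjusted p = 1). Cd74 did not follow the chain genes across libraries. Its correlation with H2-Aa was -0.39 over all libraries (Spearman -0.29) and -0.54 within groups, and that with Ciita was 0.73 and 0.69 within groups (Spearman 0.79 over all libraries, and 0.55 as Pearson without the 2 libraries farthest from the median of Cd74). The correlation with log2 gene reads over the 12 libraries was -0.63 for Cd74 and 0.59 for H2-Eb1, and the part of depth in their values was not tested.

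Ciita (ENSMUSG00000022504, chr16:10480059-10528418) was read sparsely, at 2, 16 and 23 reads in Flox saline, 9, 10 and 49 in Flox carrageenan, 64, 48 and 27 in cKO saline and 64, 70 and 18 in cKO carrageenan. These were 11.0, 37.3 and 24.6 normalized counts in Flox saline, 23.4, 33.8 and 37.0 in Flox carrageenan, 21.6, 12.2 and 15.9 in cKO saline and 21.7, 20.6 and 27.6 in cKO carrageenan. The groups overlapped in each genotype. The log2 fold changes of carrageenan over saline were 0.48 ± 0.48 (-0.54 to 1.51) and 0.50 ± 0.48 (-0.53 to 1.52) in Flox and cKO (limma adjusted p = 0.572 and 0.935). The Flox value was 0.02 without Flox saline 1-3, which held 2 reads, and 0.86 without Flox saline 4-7 (limma adjusted p = 0.983 and 0.296). These libraries do not fix the size or direction of a change within these intervals.

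The H2-DM genes, whose products swap the invariant chain fragment for a peptide, had lower means in carrageenan without passing the test. H2-DMa (ENSMUSG00000037649, chr17:34119541-34139101) was at 232, 270 and 182 normalized counts in Flox saline and 117, 118 and 166 in Flox carrageenan. In cKO it was at 208, 171 and 166 in saline and 142, 138 and 124 in carrageenan. The groups did not overlap in either genotype. The log2 fold change was -0.76 ± 0.24 (-1.27 to -0.25) in Flox and -0.43 ± 0.24 (-0.94 to 0.08) in cKO (limma adjusted p = 0.0672 and 0.628). The Flox value passed on the deposited scale, in which saline and carrageenan were normalized separately (-0.85, adjusted p = 0.0432), and without Flox saline 8-10 (-0.92, adjusted p = 0.0391). H2-DMb1 (ENSMUSG00000079547, chr17:34153072-34160230) was at 138, 151 and 206 in Flox saline, 146, 108 and 192 in Flox carrageenan, 153, 109 and 196 in cKO saline and 102, 115 and 129 in cKO carrageenan. Its groups overlapped, at log2 fold changes of -0.17 ± 0.29 and -0.37 ± 0.29 (limma adjusted p = 0.765 and 0.859). H2-DMb2, a close copy of H2-DMb1, had 3 to 34 reads a library, and how the authors' counting split reads between the copies is uncertain.

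Of the costimulation genes, Cd40 rose with carrageenan in both genotypes and Cd80 in Flox, while Cd86 did not pass although its groups were apart. Cd40 (ENSMUSG00000017652, chr2:165055627-165072948) is the receptor through which T cells activate the presenting cell. Its normalized counts were 71.7, 97.9 and 95.4 in Flox saline and 250, 152 and 211 in Flox carrageenan (13 to 89 and 45 to 280 reads). In cKO they were 69.6, 43.5 and 56.4 in saline and 166, 130 and 167 in carrageenan (96 to 206 and 109 to 489 reads). Every carrageenan library stood above every saline library, across genotypes too. The log2 fold change was 1.19 ± 0.27 (0.60 to 1.77) in Flox and 1.45 ± 0.27 (0.86 to 2.03) in cKO (limma adjusted p = 0.0175 and 0.0115). The Flox call was lost without Flox carrageenan 1-3 (adjusted p = 0.0750) or 8-10 (0.0530), and the cKO call without cKO saline 5-8 (0.0515).

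Cd80 (ENSMUSG00000075122, chr16:38455561-38496335), a ligand of CD28 and CTLA4, rose in Flox. It stood at 27.6, 41.9 and 41.8 normalized counts in Flox saline and 91.1, 155 and 71.7 in Flox carrageenan (5 to 39 and 35 to 95 reads). In cKO it stood at 19.9, 25.1 and 26.5 in saline and 29.2, 36.8 and 81.3 in carrageenan (45 to 99 and 53 to 125 reads). The treatments did not overlap in either genotype, and the 9-12 pool was far above the other cKO carrageenan libraries. The log2 fold change was 1.44 ± 0.41 (0.56 to 2.32) in Flox and 0.88 ± 0.41 (0.0021 to 1.76) in cKO (limma adjusted p = 0.0486 and 0.453). Without the 9-12 pool of cKO carrageenan the cKO value was 0.46 (limma adjusted p = 1). The Flox call was just inside the threshold. It was lost in 9 of the 12 fits that left out 1 library (adjusted p up to 0.179), on the deposited scale (0.0652), with a pseudocount of 0.5 (0.0537) and without the filter on low values (0.109).

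Cd86 (ENSMUSG00000022901, chr16:36603869-36666081), the other ligand of CD28, had 154, 149 and 162 normalized counts in Flox saline and 268, 240 and 223 in Flox carrageenan. The cKO libraries had 102, 111 and 129 in saline and 186, 181 and 213 in carrageenan. The groups did not overlap, and its saline pools in Flox were the closest of any of the 10 genes (155 ± 6.38, mean ± SD). The log2 fold change was 0.64 ± 0.21 (0.20 to 1.09) in Flox and 0.76 ± 0.21 (0.31 to 1.21) in cKO, neither past the threshold (limma adjusted p = 0.0793 and 0.0784). The cKO value passed in DESeq2 (adjusted p = 0.00233), with a stricter filter (limma, 0.0476) and without Flox saline 1-3, which enters through the shared spread (limma, 0.0386).

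Together, Cd80, Cd86 and Cd40 took 0.0411 to 0.0438% of gene reads in Flox saline and 0.0674 to 0.0834% in Flox carrageenan. In cKO they took 0.0238 to 0.0314% and 0.0449 to 0.0592%. The share was higher in every carrageenan library than in any saline library. Within groups the genes did not vary as one: the correlation of deviations from group means was 0.52 for Cd80 and Cd86, 0.13 for Cd86 and Cd40 and -0.13 for Cd80 and Cd40 (12 libraries, a description).

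Read against all genes, 2 of the 10 genes passed in Flox, both higher, where 7.17% of 10240 genes passed (734 genes, 4.42% higher and 2.74% lower). In cKO, 1 of the 10 passed, also higher, where 2.65% of 10240 passed (271 genes, 2.1% higher and 0.547% lower). In each genotype the same 4 genes, H2-DMa, Cd80, Cd86 and Cd40, had groups that did not overlap, which held for 23% of the genes tested in Flox and 29.6% in cKO. The median log2 fold change of the 10 genes was -0.0012 in Flox and 0.29 in cKO, against 0.10 and -0.07 over all genes tested. On the deposited scale the all-gene medians were 0.02 and -0.18. H2-Aa in cKO moved likewise, from 0.08 to -0.037, so the sign of values near 0 depends on the scale. The p-values measure the spread between pools. In such bulk samples, fewer cells of a type and less RNA per cell cannot be told apart.

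**Figure D2:**
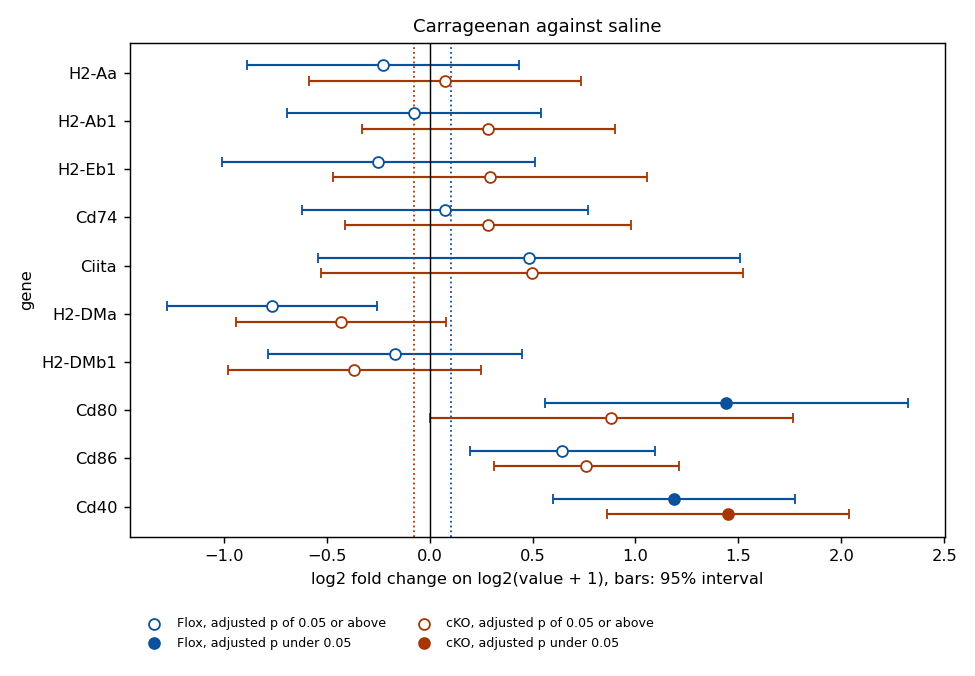
Log2 fold change of carrageenan over saline for each gene in Flox (blue) and cKO (brown), with 95% intervals from limma (n = 3 a group). Filled points have an adjusted p under 0.05, the solid line marks 0 and the dotted lines the median over all genes tested. Cd40 is filled in both genotypes and Cd80 in Flox, and the intervals of the chain genes and Cd74 span 0.

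Other genes of class II loading and processing mostly missed the threshold. Of 17 listed genes 14 were tested. The share of all genes tested that passed was 7.17% in Flox (2.74% lower) and 2.65% in cKO. In Flox 1 fell, Lgmn, an endosomal protease that cuts antigens and the invariant chain, from 655 ± 102 to 344 ± 79.6 normalized counts (log2 fold change -0.94 ± 0.25, limma adjusted p = 0.0368). In cKO none passed, and the smallest p-values were those of Sppl2a, an intramembrane protease that clears the last piece of the invariant chain (0.87 ± 0.28, limma adjusted p = 0.147), and Lgmn (-0.63 ± 0.25, 0.316). The list's median was 0.03 in Flox and 0.02 in cKO.

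Genes of interferon-gamma signaling rose in part, while the means of RFX, CREB and NF-Y genes went both ways. Of 28 listed genes 27 were tested, 7 rose in Flox and 5 in cKO, and none fell. For comparison, 4.42% of all genes tested rose in Flox and 2.1% in cKO. Means of Rfxank and Creb1 were lower in carrageenan in both genotypes, and those of Nfya and Nfyc lower in Flox and higher in cKO. Rfx5, Rfxap and Nfyb had higher means in both. None of them is among the passing genes named below. Jak2, a kinase of the interferon-gamma receptor, rose by 1.80 ± 0.27 in Flox and 1.89 ± 0.27 in cKO on the log2 scale (limma adjusted p = 0.00159 and 0.00179). Nlrc5, the counterpart of Ciita for MHC class I, rose in Flox (11.5 ± 0.405 in saline and 69.8 ± 29.6 normalized counts in carrageenan) and in cKO (10.3 ± 4.22 and 53.8 ± 35.8), by 2.41 ± 0.51 and 2.15 ± 0.51 on the log2 scale (limma adjusted p = 0.0107 and 0.0352). The inhibitor of cytokine signaling Socs3 rose in both genotypes (1.47 ± 0.23 and 1.84 ± 0.23). In Flox, Ifngr2, a receptor chain (1.05 ± 0.24), and Irf1, an activator of Ciita (1.55 ± 0.41), also passed. In cKO, Stat3, a transducer of interleukin signals (0.95 ± 0.23), and Socs1, an inhibitor of JAK kinases (2.28 ± 0.56), did. Ifng itself had 0 reads in the saline libraries and 8 and 1 reads over the Flox and cKO carrageenan libraries. The list's median was 0.80 in Flox and 0.38 in cKO.

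Of 21 other costimulatory and coinhibitory ligands, 16 were tested. Cd274, which encodes the inhibitory ligand PD-L1, rose from 8.28 ± 12.4 to 222 ± 44.6 normalized counts in Flox and from 18.2 ± 2.61 to 185 ± 69.0 in cKO (log2 fold change 5.69 ± 0.77 and 3.22 ± 0.77, limma adjusted p = 0.001 and 0.0391). At least 1 Flox saline library held no Cd274 read, which can enlarge the Flox value on this scale. Slamf1, a self-binding receptor of immune cells, rose in both genotypes (3.42 ± 0.82 and 4.73 ± 0.82). In Flox, Tnfsf14, the ligand LIGHT, rose (3.98 ± 0.67) and Vsir, the inhibitory ligand VISTA, fell from 239 ± 37.4 to 102 ± 21.9 (-1.24 ± 0.24). Slamf1 and Tnfsf14 had 9 and 4 reads over the Flox saline libraries and none in at least 1 of them. The limit given for Cd274 thus holds for their Flox values too. The list's median was 0.27 in Flox and 0.54 in cKO, with 3 genes higher and 1 lower in Flox and 2 higher in cKO. Among all genes tested, 4.42% were higher and 2.74% lower in Flox, and 2.1% higher in cKO.

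Of 14 genes of CD40 receptor signaling, 13 were tested. As a background, 7.17% of all genes tested passed in Flox and 2.1% rose in cKO. None passed in Flox, where Nfkb2 (0.71 ± 0.25) and Birc3 (0.59 ± 0.23) had the smallest p-values (limma adjusted p = 0.105 and 0.146). In cKO 4 rose: Birc3, a ubiquitin ligase bound to TRAF proteins (1.09 ± 0.23), the NF-kB subunit genes Nfkb1 (1.34 ± 0.32) and Nfkb2 (1.17 ± 0.25), and Tnfaip3, an inhibitor of NF-kB (1.37 ± 0.31, limma adjusted p = 0.0227 to 0.0357 for the 4). The difference between genotypes is given further on and did not pass. Cd40lg, the CD40 ligand gene, had 0 reads in all 12 libraries, which allows up to 3 reads in each. The list's median was 0.59 in Flox and 0.91 in cKO.

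Markers of cell types moved with the treatment beside these results. The summed level of 12 resident macrophage markers ranged from 7857 to 10110 normalized counts in Flox saline and 3352 to 3704 in Flox carrageenan, and from 9477 to 10778 and 3923 to 5317 in cKO. In Flox 8 of them fell and in cKO 4, with Cd163, a scavenger receptor, at -1.98 ± 0.24 and -1.38 ± 0.24. Across all genes tested, 2.74% fell and 4.42% rose in Flox, and 0.547% fell and 2.1% rose in cKO. The sum of 8 inflammatory monocyte markers ranged from 986 to 1795 in Flox saline and 5586 to 7470 in Flox carrageenan, and from 803 to 1453 and 2439 to 8226 in cKO, and 6 of the 8 rose in each genotype. Levels of the class II chain genes overlapped between treatments, and these sums did not. The part of the cell types these markers stand for in the values of Cd40, Cd80, Cd86 and H2-DMa was not tested.

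Of 12 dendritic cell markers, 10 were tested. Their sum was 700 to 854 in Flox saline, 470 to 612 in Flox carrageenan, 726 to 790 in cKO saline and 491 to 710 in cKO carrageenan. Mgl2, a lectin of dermal dendritic cells and macrophages, fell in Flox (-1.49 ± 0.31, limma adjusted p = 0.0107). Its means in saline and carrageenan were 309 and 108 in Flox, and 430 and 192 in cKO, where it did not pass. The sum had means of 796 and 557 in Flox and 749 and 611 in cKO, so Mgl2 made up much of it. The mean of Mgl2 fell by less than that of the sum in Flox and by more in cKO. The other markers together thus had a higher mean in carrageenan in cKO. The median log2 fold change of the tested markers was -0.31 in Flox and -0.61 in cKO. Irf4, Zbtb46, Flt3, Batf3 and Kmo also had lower means in carrageenan in both genotypes, without passing. Itgax had a lower mean in Flox and a higher one in cKO. Ccr7, Fscn1 and Cd209a had higher means in carrageenan in both genotypes, again without passing. Ccr7, a receptor of migrating dendritic cells, had means of 24.2 in saline and 86.4 in carrageenan in Flox, and 15.4 and 49.0 in cKO (limma adjusted p = 0.0891 and 0.696). In cKO the means of Fscn1, an actin-bundling protein of mature dendritic cells, were 16.5 and 47.2 and those of Cd209a, a lectin, 65.4 and 132 (limma adjusted p = 0.161 and 0.0958). Xcr1 and Clec9a, which define cross-presenting dendritic cells, had 0 to 2 reads a group. Of 8 B cell markers only Ighm was tested, Cd79a was at 0 in every library, and the sum was 44.1 to 70.7, 18.1 to 31.2, 54.7 to 88.9 and 16.5 to 20.05 in the same order of groups. Ighm fell in cKO (-2.09 ± 0.37). Of 8 T cell markers Cd3d and Cd8a were at 0 in every library, and the sums were 51.3 to 77.2, 75.5 to 89.9, 41.7 to 82.3 and 83.9 to 115. Il7r made up much of these sums, with means of 47.2, 75.5, 27.6 and 80.5 in the same order. Cd4 had a lower mean in carrageenan in both genotypes and Lck a higher one. Cd3e, Cd3g and Trac had 0 to 4 reads a group, and none of the 3 T cell markers tested passed between treatments. The 3 Langerhans cell markers summed to 133 to 463 and 193 to 318 in Flox and to 57.0 to 132 and 95.1 to 195 in cKO. Neutrophil markers, of which Ly6g was at 0 in saline, summed to 30.3 to 60.7 and 233 to 502 in Flox and 16.7 to 29.4 and 99.5 to 517 in cKO.

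All 6 pan-myeloid markers (Itgam, Ptprc, Fcgr3, Tyrobp, Fcer1g and Lyz2) were read in every group, at sums of 4599 to 9240, and none of them passed between treatments. Fibroblast markers summed to 33.1 to 422 and 551 to 977 in Flox and 195 to 506 and 563 to 845 in cKO, endothelial markers to at most 54.1, and keratinocyte markers to 215 to 480 and 416 to 562 in Flox and 630 to 1217 and 457 to 866 in cKO. In Flox, 2 of 5 fibroblast and 2 of 3 endothelial markers rose, where 4.42% of all genes tested did. In cKO none of them rose, where 2.1% of all genes did, and none passed in the difference of genotype effects. The endothelial markers together had 0, 1 and 8 reads in the Flox saline libraries. Fibroblasts, endothelial cells and keratinocytes do not normally carry CD45, and their part in the values was not tested.

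**Figure D3:**
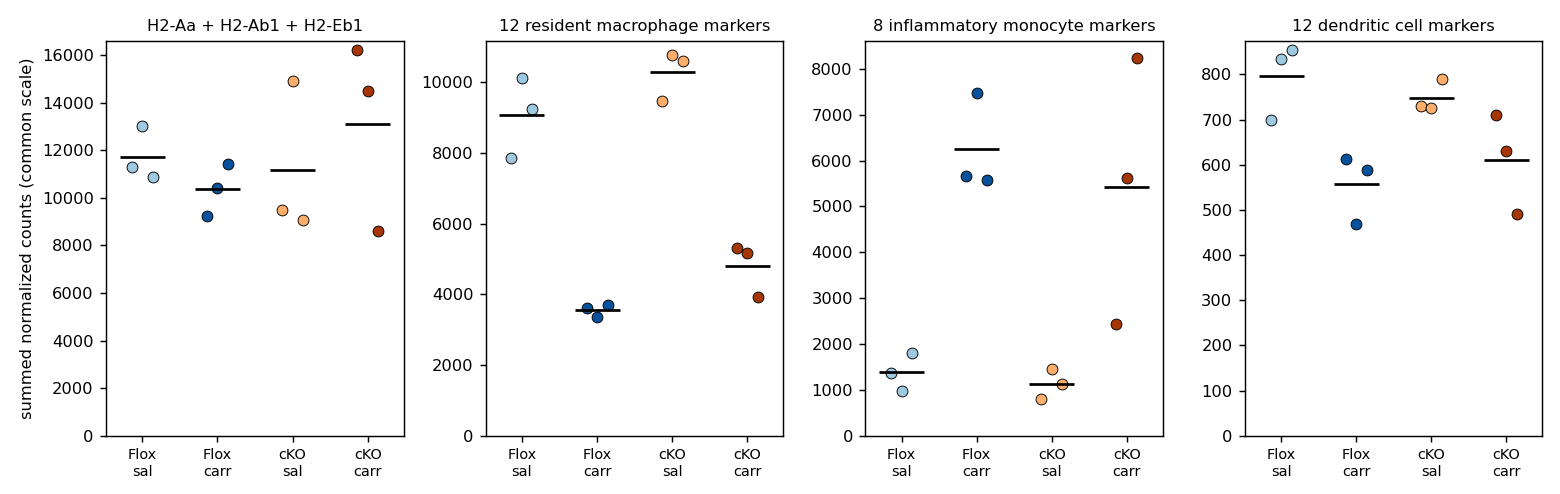
Summed normalized counts (linear axes, common scale) of the class II chain genes and of 3 marker lists in each library. Points are libraries and lines group means (n = 3). The chain sums overlap between treatments, whereas resident macrophage markers are lower and inflammatory monocyte markers higher in every carrageenan library.

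Between genotypes, none of the 10 genes passed in either treatment. Here values are on the deposited scale of each treatment. In saline, limma called 0 of 9371 genes (0%) in either direction, with 508 at an unadjusted p under 0.05, edgeR called 0 and DESeq2 22. The 10 genes gave log2 fold changes of cKO over Flox between -0.69 and 0.08, 9 of them negative, with a median of -0.33 against 0.25 over all genes (limma adjusted p = 0.683 to 0.953). The all-gene median includes sparsely read genes. Flox saline libraries held reads of 8384 to 13417 genes and cKO saline libraries of 15069 to 16225. The part of depth in the all-gene medians, here and in carrageenan, was not tested. Cd86 alone had groups that did not overlap, at 160 ± 10.2 in Flox and 120 ± 15.0 in cKO (mean ± SD, -0.42 ± 0.23), as had 15.6% of all genes tested. Cd74 was at 7095 ± 1828 and 4385 ± 1079 (-0.69 ± 0.41, 95% interval -1.63 to 0.25). Cd40 was at 91.4 ± 17.7 and 59.5 ± 13.4 (-0.62 ± 0.30, -1.30 to 0.07), and Cd80 at 38.5 ± 9.68 and 25.1 ± 3.76 (-0.57 ± 0.38, -1.45 to 0.30). H2-Aa, H2-Ab1 and H2-Eb1 gave -0.06 ± 0.36, -0.24 ± 0.35 and 0.08 ± 0.38, and Ciita, H2-DMa and H2-DMb1 gave -0.38 ± 0.57, -0.28 ± 0.24 and -0.10 ± 0.30. The 95% intervals of the chain genes were -0.90 to 0.77 for H2-Aa, -1.04 to 0.56 for H2-Ab1 and -0.80 to 0.95 for H2-Eb1.

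In carrageenan, limma called 0 of 9151 genes (0%) in either direction, with 897 at an unadjusted p under 0.05, edgeR called 0 and DESeq2 7. The 10 genes ranged from -1.15 to 0.60 (limma adjusted p = 0.497 to 0.965), 6 of them negative, with a median of -0.32 against 0.09 over all genes. Cd80 had the smallest p of the 10, at 103 ± 42.4 normalized counts in Flox and 47.7 ± 27.2 in cKO (-1.15 ± 0.42, 95% interval -2.09 to -0.22, limma adjusted p = 0.497). Its cKO carrageenan 9-12 library lay among the Flox values. H2-Eb1 was at 2845 ± 385 and 4555 ± 1807 (0.60 ± 0.33, -0.14 to 1.33) and Cd74 at 6892 ± 965 and 4925 ± 1202 (-0.50 ± 0.27, -1.10 to 0.10). Cd86 again had groups that did not overlap, at 236 ± 23.3 and 188 ± 16.4 (-0.33 ± 0.21), as had 15.1% of all genes tested. Cd40 was at 198 ± 48.4 and 150 ± 21.4 (-0.38 ± 0.26). H2-Aa and H2-Ab1 gave 0.21 ± 0.29 and 0.10 ± 0.26, Ciita -0.39 ± 0.35, H2-DMa 0.03 ± 0.24 and H2-DMb1 -0.32 ± 0.27.

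One library decided whether genes passed here. Without cKO carrageenan 9-12, 420 of 8908 genes passed (4.71%, 1.43% higher and 3.29% lower in cKO), and 3 of the 10 genes were among them. H2-Eb1 was then higher in cKO by 0.97 ± 0.16 (limma adjusted p = 0.0177), and Cd74 and Cd80 lower, at -0.69 ± 0.16 and -1.58 ± 0.35 (limma adjusted p = 0.0469 and 0.0461). H2-Aa was at 0.50 ± 0.14 (limma adjusted p = 0.0881), H2-Ab1 at 0.28 ± 0.15 and H2-DMa at 0.09 ± 0.22 (limma adjusted p = 0.336 and 0.847). This omission leaves 2 cKO libraries, the deepest of the treatment, against 3 Flox libraries, and the library was left out with its distance from the others known. Leaving out any of the other 5 carrageenan libraries made none of the 10 pass.

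In the authors' deposited tables of cKO against Flox none of the 10 genes had an adjusted p under 0.05. In carrageenan the smallest in the authors' deposited table were 0.380 for Cd80 (log2 fold change -0.89), 0.460 for H2-Eb1 (0.60) and 0.487 for Cd74 (-0.45). In saline the smallest in the authors' deposited table was 0.602 for Cd74 (-0.63).

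**Figure D4:**
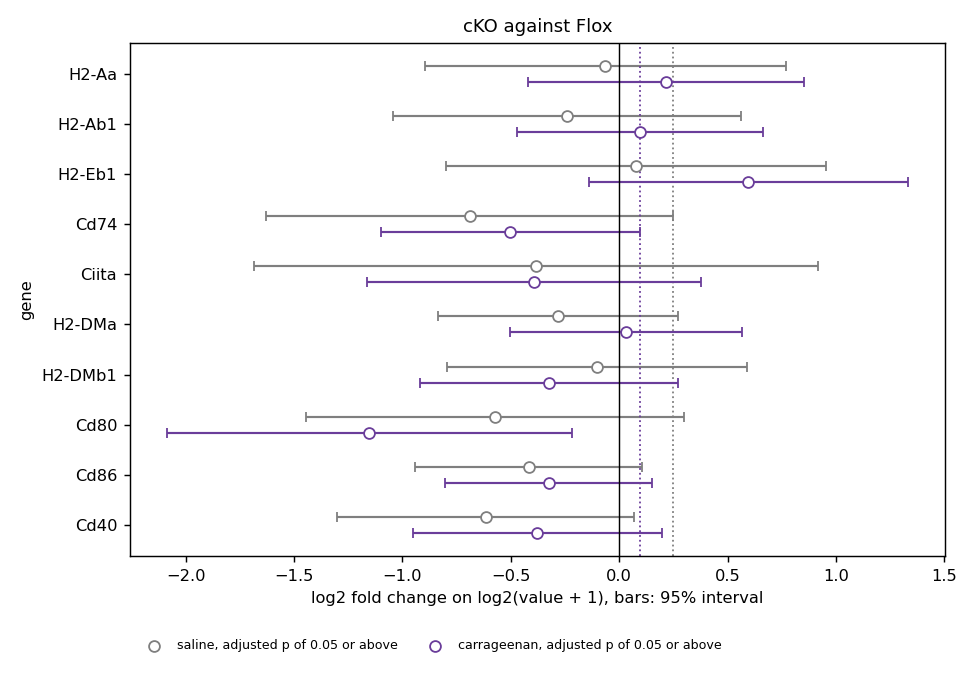
Log2 fold change of cKO over Flox in saline (grey) and carrageenan (purple) with 95% intervals from limma (n = 3 a group, deposited scale). Open points have an adjusted p of 0.05 or above, and dotted lines mark the median over all genes tested. No point is filled, and the Cd80 interval in carrageenan, -2.09 to -0.22, is the only one that leaves out 0.

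Ratios of genes within 1 library need no scaling between libraries, and they are compared here across libraries, not as levels of one gene against another. There were 0.888, 0.906 and 0.842 H2-Eb1 reads per H2-Ab1 read in Flox saline and 0.806, 0.695 and 0.845 in Flox carrageenan. In cKO there were 1.09, 1.25 and 0.969 in saline and 1.29, 1.23 and 0.843 in carrageenan. In 5 of the 6 cKO libraries the ratio thus stood above every Flox library, and carrageenan 9-12 lay within the Flox range. Cd74 reads per H2-Aa read were 1.31, 1.75 and 1.68 in Flox saline and 2.13, 1.68 and 2.02 in Flox carrageenan. In cKO they were 1.14, 0.602 and 1.54 in saline and 0.846, 0.847 and 2.26 in carrageenan, the last again in pool 9-12. The libraries with the lowest Cd74 and the highest H2-Eb1 ratios were those with the most reads, and the part of depth in these ratios was not tested.

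Cd86 reads per Cd80 read were 5.60, 3.56 and 3.87 in Flox saline and 2.94, 1.54 and 3.11 in Flox carrageenan, groups that did not overlap. In cKO they were 5.10, 4.44 and 4.87 in saline and 6.35, 4.92 and 2.62 in carrageenan, on both sides of the saline values. Cd40 reads per Cd86 read were 0.464 to 0.656 in Flox saline and 0.634 to 0.949 in Flox carrageenan, and 0.391 to 0.684 and 0.715 to 0.896 in cKO.

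**Figure D5:**
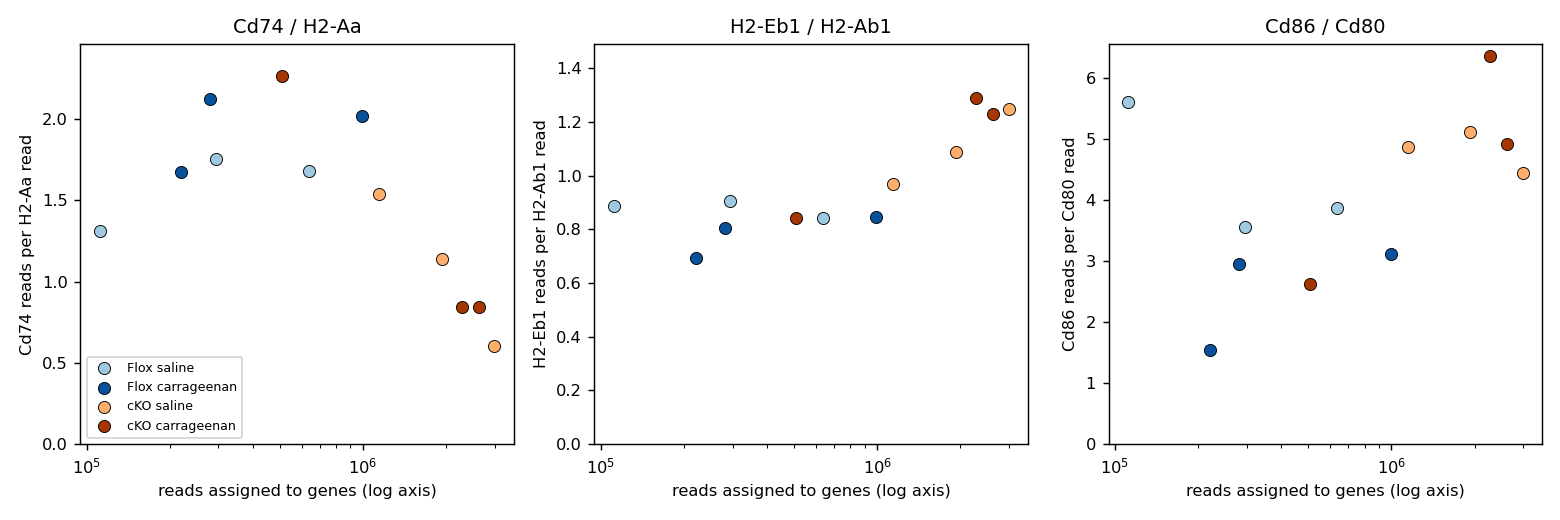
Ratios of reads within each library (vertical axes, linear) against the reads assigned to genes (log axis), with 1 point per library coloured by group. The 5 deepest libraries, all cKO, have 0.969 to 1.29 H2-Eb1 reads per H2-Ab1 read and the 7 others 0.695 to 0.906.

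Whether carrageenan acted differently in the genotypes was tested as the difference of the genotype effects (carrageenan minus saline, deposited scale). None of 10243 genes passed in limma (0%), 244 had an unadjusted p under 0.05, and edgeR and DESeq2 called 0. Among the 10 genes the smallest limma adjusted p was 0.967. H2-Eb1 gave 0.52 ± 0.51 on the log2 scale (-0.58 to 1.62) and Cd80 -0.58 ± 0.59 (-1.84 to 0.68). Cd74 gave 0.19 ± 0.48, Cd40 0.24 ± 0.39 and Cd86 0.09 ± 0.30. Without cKO carrageenan 9-12, H2-Eb1 gave 0.89 and Cd80 -1.003 (limma adjusted p = 0.921 for each), Cd74 -0.0043 and Cd86 0.02 (limma adjusted p = 0.999 and 0.992), and again 0 genes passed. The call of Cd80 in Flox but not in cKO is therefore not a shown difference between genotypes.

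None of the other pathway genes passed between genotypes or in the difference of effects. Those with the smallest p in the loading list were H2-DMb2 (-1.14 ± 0.57) and March1 (0.69 ± 0.36) in saline, Ctsl (0.66 ± 0.24) and Ifi30 (-0.64 ± 0.30) in carrageenan, and H2-Ob (1.72 ± 1.22) and Ctsd (-0.73 ± 0.53) for the difference. In the transcription and interferon-gamma list they were Kdm6b (-1.16 ± 0.32) and Irf4 (-0.59 ± 0.22) in saline, Il10 (1.11 ± 0.35) in carrageenan, and Irf2 (-1.07 ± 0.41) for the difference. Among other ligands they were Pvr (-0.57 ± 0.28) and Cd274 (2.19 ± 1.10) in saline, Slamf1 (0.88 ± 0.35) and Tnfsf9 (0.80 ± 0.33) in carrageenan, and Cd274 (-2.50 ± 1.11) and Vsir (0.67 ± 0.34) for the difference. In CD40 signaling they were Nfkb2 (-0.86 ± 0.24) and Traf1 (-1.32 ± 0.40) in saline, Map3k14 (-0.97 ± 0.29) and Traf5 (1.98 ± 0.91) in carrageenan, and Tnfaip3 (1.19 ± 0.44) and Nfkb1 (0.66 ± 0.44) for the difference. All of these are log2 values ± SE.

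The genes whose levels followed those of H2-Aa most closely over the 12 libraries, among 5587 genes with a mean of at least 20 normalized counts, were Abcb1b (Pearson r of log2 values 0.92), Fam91a1 (0.88), Gnai3 (0.86), Bzw1 (0.84) and Cd9 (0.84). For Cd40 they were Gm15832 (0.96), Mllt6 (0.95), Hdc (0.93), Tle3 (0.93) and Spata13 (0.93). These are the highest of many correlations between genes of the same 12 libraries, which also share treatment and depth.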

How the data were processed

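Per the labels' protocols, RNA of sorted cells from 12 pools went into the Lexogen LUTHOR 3' kit, whose libraries carry unique molecular identifiers, and was read on an Illumina NovaSeq. The submitters' processing notes name cutadapt, STAR and the mouse build GRCm38. The sources used here do not give versions, the read counter, its strand setting or any collapsing of identifiers. The authors deposited normalized counts, a signal equal to the reads of a gene over a size factor of its library, in 1 table for saline and another for carrageenan. The authors' deposited comparison tables give, per the file headers, a log2 fold change of cKO over Flox, a test statistic (a score) and a p-value per gene. Every value came out as a whole number of reads within 0.001 (100% of values), and libraries of a group differed by more than counting error.

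The 121 entries that are not genes (0.170 to 2.23% of reads) were left out. Of 55401 gene IDs 55141 were matched to symbols with GENCODE vM21. For carrageenan against saline, medians of ratios over 6501 genes set a common scale for the 12 libraries. Genotypes were compared on the deposited scale. The test was limma (eBayes with trend) on log2-transformed values after adding 1, over genes with at least 5 in at least 3 libraries, at a Benjamini-Hochberg adjusted p under 0.05. The plan named normalized counts, and limma was kept although whole reads were recovered. edgeR and DESeq2 on those reads were alternatives, with other scales, filters, pseudocounts and omissions of 1 library. The versions were DESeq2 1.42.0, edgeR 4.0.16, limma 3.58.1 and R 4.3.3. The limma step was tested on simulated data.

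Intervals of fold changes are 95% intervals. The limit for 0 reads is 3 reads and covers counting error only. The genes, the lists and the rules were chosen with earlier results of these data known. Every one of the 10 genes is named. Of a gene list, the genes past the threshold are named (the 6 with the smallest p where more passed), or the 2 with the smallest p where none did. A few genes that this rule would name are not reported here. Of the marker lists, those named were chosen after their values were seen. Nothing says that a mouse number in saline and carrageenan is the same animal. Deviations from the group means of same-numbered cKO pools correlated at 0.25, 0.52 and 0.61, and each pool was closest to its own number, so cKO pools met the rule for paired samples. Those of Flox correlated at 0.02, -0.02 and 0.09 and did not. The cKO pools also stood in the same order of gene reads in both treatments (5-8, 1-4, 9-12), and the Flox pools did not. The part of depth in these correlations was not tested. The values printed are from the fit without the replicate number as a block unless stated, and the block changed no call of the 10 genes.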

Additional observations from a re-analysis of the deposited data

How the results depend on the processing

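Of 760 recomputed values of the 10 genes, 714 kept their direction and side of the threshold, 23 changed sign, 15 lost the call and 8 gained it. The number of genes passing for carrageenan in Flox was 734, and 418 with no filter, and 350 to 1080 with 1 library left out (427 without Flox carrageenan 1-3, 350 without 4-7). In cKO it was 271, and 143 with no filter, 733 in edgeR, 915 in DESeq2 and 84 to 521 with 1 library left out. The cKO counts were 521 without Flox saline 1-3, 84, 146 and 111 without cKO saline 1-4, 5-8 and 9-12, and 95 and 107 without cKO carrageenan 5-8 and 9-12. Between genotypes it was 22 in saline and 7 in carrageenan in DESeq2 against 0, and 0 to 420 with 1 carrageenan library left out. Higher genes were 61.7% of calls in Flox and 52.4% on the deposited scale, and 79.3% and 69.4% in cKO. The replicate block gave 737, 264 and 0 genes for Flox, cKO and the difference, and changed no call of the 10 genes (adjusted p of Cd40 in cKO 0.0226).

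Signs that turned were of values near 0. On the deposited scale Cd74 in Flox was -0.017 and H2-Aa in cKO -0.037. H2-DMa between genotypes in carrageenan was -0.043 in edgeR and -0.025 in DESeq2. With 1 library left out, the fold changes in Flox ranged from -0.14 to 0.023 for H2-Ab1, -0.12 to 0.23 for Cd74 and -0.37 to 0.041 for H2-DMb1, and in cKO from -0.085 to 0.36 for H2-Aa. Between genotypes in saline they ranged from -0.26 to 0.056 for H2-Aa, -0.22 to 0.25 for H2-Eb1 and -0.30 to 0.12 for H2-DMb1. In carrageenan they ranged from -0.040 to 0.28 for H2-Ab1 and -0.051 to 0.19 for H2-DMa, and for the difference from -0.0043 to 0.41 for Cd74. The cause of these changes was not tested. Ciita had 2 to 23 reads in Flox saline and Cd80 5 to 39, which limits the precision of their values there.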
